A study of Mus musculus with 7 samples.

Results

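Genes that regulate the splicing of messenger RNA were examined in mouse cardiomyocytes sorted at postnatal day 6 (P6) or day 30 (P30), with 4 libraries at the younger and 3 at the older age. The 36 genes were chosen by symbol, with earlier results of these data known. All 36 were found among the 23337 genes of the deposited count table. The set holds 10 tissue-specific regulators of alternative splicing, 12 SR and SR-like genes, 11 hnRNP genes and 3 further RNA-binding regulators, Khdrbs1, Elavl1 and Tardbp. The mice of both ages carried a genotype labelled Rosa-Tom/Cas9, without word on which allele each animal had, and all received AAV9-cTNT-Cre on day 1, a viral vector in which the cardiac troponin T promoter drives Cre recombinase. Cells were freed by collagenase perfusion and purified by fluorescence. No library was made without the virus, so age and time since the virus rose together and cannot be told apart. The labels do not say whether libraries came from separate animals, so the spread that p-values rest on may be technical in part.

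Alternative splicing decides which exons of a transcript are kept. SR proteins carry domains rich in arginine and serine and mostly promote the use of nearby exons, whereas hnRNP proteins often repress it, and both kinds are made in nearly every cell. Regulators such as the RBM, CELF, MBNL, PTBP and RBFOX proteins, here called tissue-specific, act on top of these. Not all are confined to certain tissues, since Ptbp1 acts in most cells. In heart muscle RBM20 sets the isoforms of titin, and around birth CELF proteins are known to decline while MBNL proteins gain weight in the fetal-to-adult switch of splicing. The counts are per gene: they measure how much transcript each regulator had, not protein, and not which exons were spliced.

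Between P6 and P30 the transcripts of most of these regulators fell. Of the 36 genes, all of which passed the filter on low counts, 25 were lower and 1 was higher at the older age, where a call is a Benjamini-Hochberg adjusted p under 0.05 over 12561 genes in the quasi-likelihood test of edgeR. Over all genes tested 27.8% were lower and 26.3% higher, 54.1% in either direction. The SR and SR-like class had 11 of 12 lower, the hnRNP class 8 of 11, the tissue-specific class 4 of 10 with 1 higher, and the further regulators 2 of 3. The median log2 fold change (P30 over P6) was -0.90 in the SR class, -0.53 in the hnRNP class and -0.31 in the tissue-specific class, against -0.02 over all genes tested. The differences between classes were not tested, and the set was chosen with earlier results of these data known. At least 2-fold lower were 9 genes, 6 of them SR or SR-like, where 12.4% of all genes tested were called and at least 2-fold lower.

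**Figure D1:**
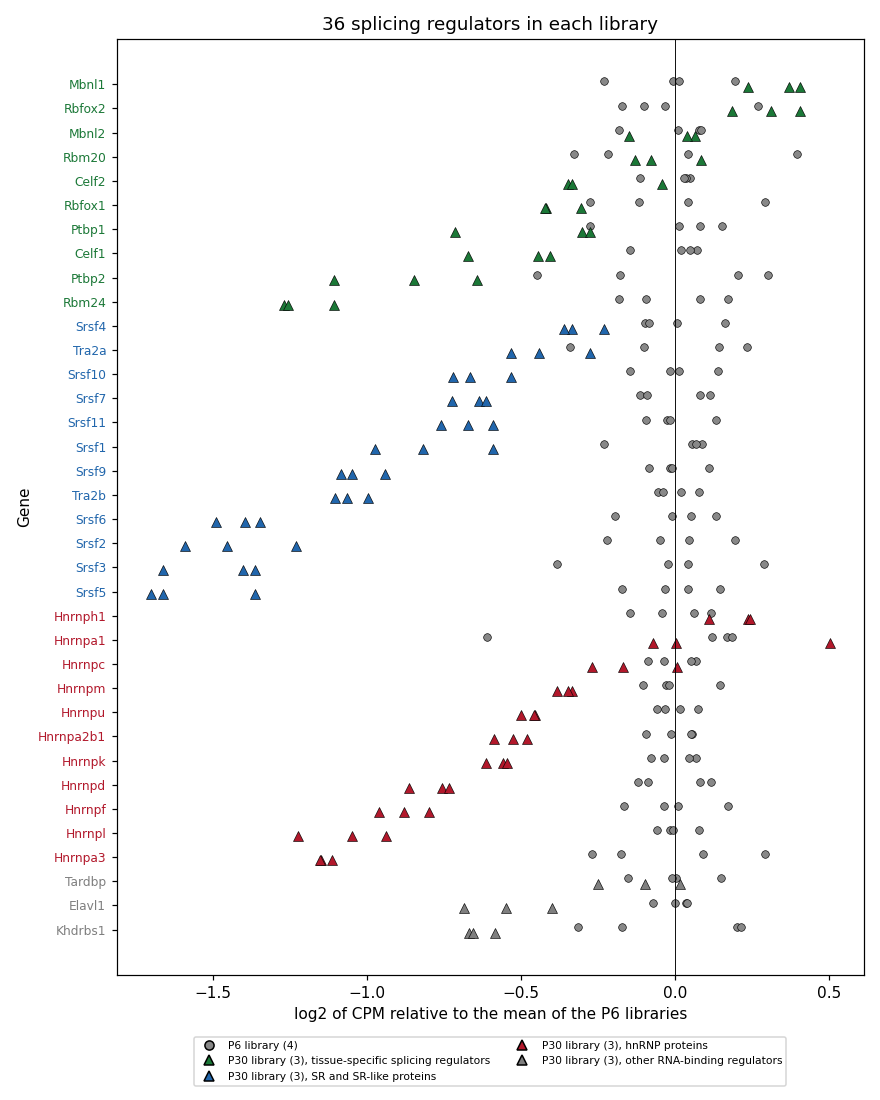
Each row is 1 gene and each point 1 library, placed at the log2 of its CPM relative to the mean of the 4 P6 libraries; grey circles are P6, and triangles, coloured by class, are P30. The triangles of the SR genes lie to the left of the circles for 11 of 12 genes, while those of Rbm20 and Mbnl2 lie among the circles; of all genes tested, 28.8% lay wholly lower at P30.

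Summed over the class, SR and SR-like genes took 1527, 1316, 1499 and 1628 CPM in the libraries P6a to P6d, against 679, 647 and 732 CPM in P30a to P30c (CPM, counts relative to each library's total over tested genes, scaled by TMM factors). The hnRNP genes took 2219 to 2401 CPM at P6 and 1604 to 1678 CPM at P30, and the tissue-specific regulators 1829 to 1922 CPM and 1418 to 1573 CPM. The ages did not overlap in any of these 3 sums. As a share of raw library totals, which uses no scaling factor, the 36 genes together made up 0.626% ± 0.0110 (SD, n = 4) at the younger age and 0.372% ± 0.00841 (SD, n = 3) at the older. Without scaling, however, genes in general shifted down, with a median log2 fold change of -0.20 over all genes tested. In summed CPM the 36 genes went from 5936 ± 231 to 4000 ± 155.

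Library totals ran from 10594932 to 51427646 counts, so that 3 counts equalled 0.0553 to 0.271 CPM. Cardiomyocyte markers were abundant in every library, with 63263 to 75604 CPM summed over 8 genes at P6 and 94252 to 96988 CPM at P30. Myh6 alone went from a mean of 33636 CPM to 57300 CPM. Of the 8 genes 4 were higher and 0 lower, with a median log2 fold change of 0.17. Of 15 genes of mitosis and DNA replication, all 15 were lower at P30; Rrm2, a subunit of ribonucleotide reductase, went from 136 ± 21.8 (SD, n = 4) to 6.19 ± 0.629 CPM (SD, n = 3), Mcm2, part of the replicative helicase, from 64.8 ± 6.77 to 14.1 ± 1.60 CPM, and Ccnb1, the mitotic cyclin B1, from 31.3 ± 9.66 to 0.543 ± 0.497 CPM. Markers of other cells moved with age too: all 8 endothelial markers were higher at P30 (summed 95.1 to 176 CPM at P6, 312 to 620 CPM at P30), and so were 4 of 5 tested leukocyte markers (1.79 to 4.56 CPM and 10.8 to 31.6 CPM), none of whose 8 genes was at 0 in every library, Cd52 being at 0 at P6. Of 9 immediate early and dissociation-associated genes 8 were higher (227 to 301 CPM and 1136 to 2096 CPM). Smooth muscle and pericyte markers had 4 of 7 higher (975 to 2187 CPM and 972 to 1815 CPM), and fibroblast markers 1 of 7 lower (158 to 391 CPM and 137 to 313 CPM). The erythroid list (4 genes in the table, Hba-a1 and Hba-a2 at 0 in every library) and the neuron and glia list (6 genes) summed to at most 10.5 CPM and 4.65 CPM in any library, each with 1 gene tested and none called. The part of these cells and genes in the changes below was not tested. In bulk samples fewer cells of a type and less RNA per cell cannot be told apart.

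The stretch of DNA ahead of a start site is where general transcription factors bind, and 33 of the 36 genes had a window of 250 bases before an annotated start in RefSeq (GRCm38.p6). Windows are shown for 4 genes with a single start and no annotated exon in the window: Srsf6 and Tra2b, the 2 such SR genes with the largest falls, and Rbm24 and Mbnl2, the tissue-specific regulators with the largest fall and the smallest change. They lie at chr2:162931258-162931507 (plus strand), chr16:22266006-22266255 (minus), chr13:46418050-46418299 (plus) and chr14:120275419-120275668 (plus). Capitals mark matches to any of the words listed below.
Srsf6: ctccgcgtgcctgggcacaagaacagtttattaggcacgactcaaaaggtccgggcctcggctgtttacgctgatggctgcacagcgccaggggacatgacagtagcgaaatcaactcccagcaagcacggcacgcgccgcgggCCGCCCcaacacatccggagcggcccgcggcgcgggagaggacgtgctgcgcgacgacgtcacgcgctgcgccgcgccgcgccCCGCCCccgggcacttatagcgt
Tra2b: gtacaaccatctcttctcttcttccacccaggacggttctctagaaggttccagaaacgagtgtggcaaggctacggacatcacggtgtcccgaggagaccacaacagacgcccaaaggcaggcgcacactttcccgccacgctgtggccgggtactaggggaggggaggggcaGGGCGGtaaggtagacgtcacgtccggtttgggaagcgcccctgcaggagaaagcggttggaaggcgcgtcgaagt
Rbm24: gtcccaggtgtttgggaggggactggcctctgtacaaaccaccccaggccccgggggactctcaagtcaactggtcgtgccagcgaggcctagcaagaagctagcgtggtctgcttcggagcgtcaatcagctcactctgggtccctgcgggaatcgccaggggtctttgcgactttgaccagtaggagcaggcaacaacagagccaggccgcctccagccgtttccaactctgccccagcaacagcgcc
Mbnl2: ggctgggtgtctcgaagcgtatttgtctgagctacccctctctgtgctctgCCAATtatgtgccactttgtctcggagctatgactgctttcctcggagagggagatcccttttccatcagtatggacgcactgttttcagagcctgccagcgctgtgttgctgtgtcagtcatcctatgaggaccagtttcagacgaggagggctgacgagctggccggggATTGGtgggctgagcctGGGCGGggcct

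Words were searched on both strands: the CCAAT box (CCAAT or its reverse ATTGG), the GC box (GGGCGG or its reverse CCGCCC), the TATA box (TATAAA or its reverse TTTATA), an E2F-type site (TTTCGCGC or its reverse GCGCGAAA, and TTTGGCGC or its reverse GCGCCAAA), the full CRE (TGACGTCA), the E-box CACGTG and an ETS-type site (CCGGAAG or its reverse CTTCCGG); none contains another, though neighbours can share bases. A GC box was found for 11 of 12 SR and SR-like genes, 7 of 11 hnRNP genes and 5 of 8 tissue-specific regulators with a window, against 32.7% of all 32851 windows in the table. A CCAAT box was found for 4, 8 and 3 of these genes, against 33.8% of all windows. The windows of the regulators were richer in G and C, with a median of 62.0% against 52.4%, and a gene with several starts had several chances of a match. The Srsf6 window held 2 GC boxes, the Tra2b window 1, the Rbm24 window none of the words, and the Mbnl2 window 1 GC box and 2 CCAAT boxes. A match in letters is a description and does not show that a factor binds.

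The tissue-specific regulators went different ways. Rbm24, a muscle-enriched splicing factor needed for sarcomere assembly (chromosome 13, 46418434 to 46431095, plus strand, GRCm38), was counted at 513, 482, 579 and 616 CPM at P6 and at 254, 227 and 229 CPM at P30, here and below in the order of the library letters. Every P30 library lay below every P6 library, with a log2 fold change of -1.21 ± 0.11 (SE, edgeR adjusted p = 1.9e-05). Rbm20, the regulator of titin isoforms (chromosome 19, 53677306 to 53867080, plus strand), had 389, 496, 325 and 301 CPM at P6 and 400, 345 and 357 CPM at P30. Its ages overlapped fully, the P6 libraries spread more widely than the P30 libraries, and its log2 fold change of -0.04 ± 0.16 did not pass the test (edgeR adjusted p = 0.85).

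Among the CELF and MBNL genes, Celf1 fell and Mbnl1 rose. Celf1, whose protein binds GU-rich sequence and favours fetal splice forms, had 219, 255, 246 and 250 CPM at P6 and 183, 152 and 178 CPM at P30, a log2 fold change of -0.50 ± 0.10 (edgeR adjusted p = 0.0017) with no overlap between ages. Celf2, its close relative, had 126, 112, 124 and 124 CPM at P6 and 95.5, 96.5 and 118 CPM at P30. Its ages overlapped, since P30c exceeded P6b, and its log2 fold change of -0.24 ± 0.10 missed the threshold (edgeR adjusted p = 0.071). It passed as lower without P6b (edgeR adjusted p = 0.039) or P30c (0.021), with unscaled library totals (0.0039) and with the length trend taken out (0.0080).

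Mbnl1, the muscleblind protein that favours adult splice forms in heart and skeletal muscle (chromosome 3, 60472830 to 60629750, plus strand), had 146, 125, 148 and 168 CPM at P6 and 194, 189 and 173 CPM at P30. The lowest P30 library stood just above the highest P6 library, with a log2 fold change of 0.34 ± 0.11 (edgeR adjusted p = 0.022). This call was lost without P30a (edgeR adjusted p = 0.079), without P30b (0.067), with unscaled library totals (0.18) and with a transcript length trend taken out (0.13). Mbnl2, the second muscleblind gene of heart, had 297, 260, 311 and 312 CPM at P6 and 308, 266 and 303 CPM at P30, values that overlapped throughout (log2 fold change -0.01 ± 0.10, edgeR adjusted p = 0.92).

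The polypyrimidine tract binding proteins repress exons, Ptbp1 in most cells and Ptbp2 foremost in neurons. Ptbp2 had 29.9, 24.8, 39.0 and 41.7 CPM at P6 and 18.8, 15.7 and 21.7 CPM at P30, with no overlap and a log2 fold change of -0.85 ± 0.20 (edgeR adjusted p = 0.0050). Ptbp1 had 18.7, 25.2, 24.0 and 22.9 CPM at P6 and 18.4, 18.7 and 13.8 CPM at P30. Its log2 fold change of -0.42 ± 0.15 passed narrowly (edgeR adjusted p = 0.042), although P30b was level with P6a. The call was lost when any 1 library other than P6a was left out, with an edgeR adjusted p of at most 0.15, reached without P30c, and with median-of-ratios size factors (0.052), while the log2 fold change stayed between -0.60 and -0.29, and exons of Ptbp1 overlap those of Plppr3 on the other strand.

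The RBFOX proteins bind UGCAUG and act in brain, heart and muscle. Rbfox1 had 27.2, 22.9, 20.5 and 18.4 CPM at P6 and 18.02, 16.7 and 16.6 CPM at P30, and Rbfox2 had 64.5, 87.5, 71.1 and 67.9 CPM and 82.6, 90.3 and 96.2 CPM. Neither passed the test, with log2 fold changes of -0.38 ± 0.15 (edgeR adjusted p = 0.054) and 0.30 ± 0.12 (edgeR adjusted p = 0.055). Rbfox1 was lower in each P30 library than in any P6 library, and for Rbfox2 only P6b reached into the range of P30. Each passed with a certain library left out, Rbfox1 without P6d (edgeR adjusted p = 0.022) and Rbfox2 without P6b (edgeR adjusted p = 0.0052). Rbfox1 also passed with library totals (edgeR adjusted p = 0.011). Rbfox2 also passed with median-of-ratios size factors (edgeR adjusted p = 0.044) and with DESeq2 (DESeq2 adjusted p = 0.047).

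Among the SR genes were the largest falls of the 36. Srsf5, the SR gene with the lowest log2 fold change (chromosome 12, 80945504 to 80950507, plus strand), had 244, 210, 231 and 262 CPM at P6 and 74.9, 72.8 and 92.0 CPM at P30. The ages lay far apart, and the log2 fold change was -1.57 ± 0.12 (edgeR adjusted p = 7.5e-06). Srsf3, the smallest SR protein, which also acts in RNA export and in poly(A) site choice, had 229, 171, 219 and 272 CPM at P6 and 86.6, 70.5 and 84.3 CPM at P30. It fell by 1.47 ± 0.15 on the log2 scale (edgeR adjusted p = 5.4e-05). Srsf2, which also helps release paused RNA polymerase, fell by 1.42 ± 0.13 and Srsf6 by 1.41 ± 0.10, so that these 4 genes were each 2.66-fold to 2.96-fold lower at P30. Exons of Srsf2 overlap those of Mfsd11 and Mettl23 on the other strand.

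The other SR genes fell less. Tra2b, a relative of the fly sex-determination factor transformer-2, was 2.08-fold lower and Srsf9 2.03-fold lower. Srsf1, the founding member of the family, had 179 ± 17.8 CPM (SD, n = 4) and then 104 ± 13.9 CPM (SD, n = 3), and fell by 0.79 ± 0.12 on the log2 scale. Srsf7, Srsf10 and Srsf11 fell by 0.66 ± 0.09, 0.64 ± 0.10 and 0.67 ± 0.09 on the log2 scale. Srsf4 fell by 0.31 ± 0.10 (edgeR adjusted p = 0.024), a call lost without P6c, P30a or P30b (edgeR adjusted p up to 0.088) and with the length trend taken out (0.067). Tra2a did not pass (log2 fold change -0.41 ± 0.17, edgeR adjusted p = 0.067), its P6c value of 11.1 CPM lying inside the P30 range of 9.69 to 11.6 CPM. It passed as lower without P6c (edgeR adjusted p = 0.027) and with library totals (0.015).

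**Figure D2:**
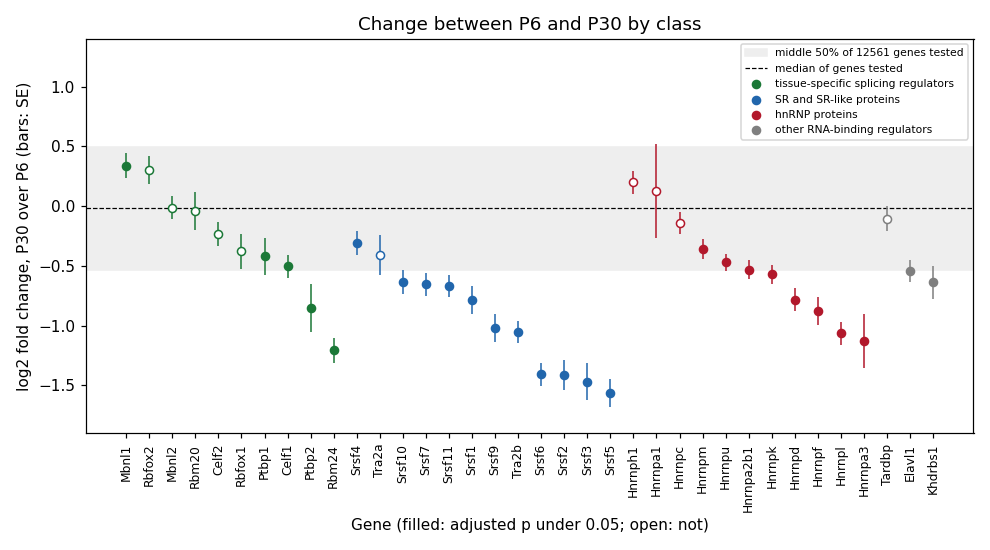
Points give the log2 fold change of each gene, P30 over P6, with its SE; filled points passed the test, and the grey band holds the middle 50% of the 12561 genes tested. The 4 lowest points are Srsf5, Srsf3, Srsf2 and Srsf6, between -1.57 and -1.41, and Mbnl1 is the only filled point above 0.

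Of the 11 hnRNP genes 8 fell, by 0.36 to 1.13 on the log2 scale. Hnrnpa2b1, a regulator of exon skipping and RNA transport and the most counted of the class, had 819, 739, 781 and 819 CPM at P6 and 566, 525 and 548 CPM at P30, with a log2 fold change of -0.53 ± 0.08 (edgeR adjusted p = 0.00039). Hnrnpl, which binds CA-rich sequence (chromosome 7, 28808541 to 28822266, plus strand), had 158, 162, 173 and 163 CPM at P6 and 70.2, 79.2 and 85.7 CPM at P30. It fell by 1.07 ± 0.09 on the log2 scale (edgeR adjusted p = 1.8e-05), with no overlap between ages. Hnrnpf and Hnrnpd fell by 0.88 ± 0.12 and 0.78 ± 0.10. Hnrnpk, Hnrnpu and Hnrnpm, all abundant nuclear proteins, fell by 0.57 ± 0.08, 0.47 ± 0.07 and 0.36 ± 0.08. Exons of Hnrnpm overlap those of March2 on the same strand. Exons of Hnrnpk and Hnrnpu overlap those of Rmi1 and Cox20 on the other strand.

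Some hnRNP genes did not pass. Hnrnpc, whose protein masks cryptic splice sites, went from 141 ± 7.17 to 128 ± 12.6 CPM (log2 fold change -0.14 ± 0.09, edgeR adjusted p = 0.22). With library totals Hnrnpc passed as lower (edgeR adjusted p = 0.0093). Hnrnph1, which binds G-rich runs, went from 75.4 ± 5.99 to 86.6 ± 4.44 CPM (log2 fold change 0.20 ± 0.09, edgeR adjusted p = 0.098), with P6c, at 81.7 CPM, above P30b, at 81.4 CPM. With the length trend taken out it passed as higher (log2 fold change 0.26, edgeR adjusted p = 0.028).

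For Hnrnpa1 and Hnrnpa3 the table holds few counts, and both have many near copies in the genome. Hnrnpa1 had 5 to 38 raw counts in a library and 0.422 to 0.912 CPM, so that no change was detectable at this depth (log2 fold change 0.13 ± 0.39, edgeR adjusted p = 0.80). Of the distinct 50-base words in its longest coding transcript, 46.4% also occur in transcripts of 18 other annotated genes. Hnrnpa3 had 4.70, 5.66, 4.41 and 6.50 CPM at P6 and 2.40, 2.39 and 2.46 CPM at P30, with a log2 fold change of -1.13 ± 0.23 (edgeR adjusted p = 0.0023), and shared 28.2% of its words with 43 other genes. Among the other members the share was 49.0% for Hnrnpf, 34.5% for Hnrnpk, 31.5% for Srsf3, 28.8% for Hnrnpm (all with March2) and 27.8% for Srsf5. The counting of reads that map to several places is unknown here, so the levels of these genes are uncertain.

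Among the further regulators, Khdrbs1, the signalling-dependent splicing factor Sam68, had 55.4, 61.2, 79.2 and 79.9 CPM at P6 and 45.9, 43.4 and 43.7 CPM at P30 (log2 fold change -0.64 ± 0.14, edgeR adjusted p = 0.0039). Elavl1, the RNA-stabilising protein HuR, had 107, 99.6, 107 and 104 CPM at P6 and 71.5, 65.0 and 79.3 CPM at P30 (log2 fold change -0.54 ± 0.09, edgeR adjusted p = 0.00090). In both genes every P30 library was lower than every P6 library. Tardbp, which encodes TDP-43, a repressor of cryptic exons, went from 51.2 ± 4.40 to 47.6 ± 4.37 CPM and did not pass (edgeR adjusted p = 0.43). It passed as lower with library totals and with the length trend taken out (lowest edgeR adjusted p = 0.034). Exons of Elavl1 and Tardbp overlap those of Ccl25 and Masp2 on the other strand.

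Libraries of an age differed in how often they were lowest. P6b had the lowest CPM of the 4 P6 libraries for 21 of the 36 genes, 8 of them SR or SR-like, and the highest for 6, and P30b had the lowest of the 3 P30 libraries for 24 genes. The same count over all genes was not taken. P6b and P30b had the largest TMM factors of their ages, 1.09 and 0.950, which lower CPM. Of raw counts the 36 genes made up 0.615% in P6b and 0.617% to 0.637% in the other P6 libraries. In P30b they made up 0.363%, against 0.375% and 0.379%. Of the P6 libraries, P6b had the lowest cardiomyocyte sum, 63263 CPM, and the highest fibroblast and immediate early sums, at 391 and 301 CPM. Its endothelial sum, 176 CPM, was level with that of P6c, also 176 CPM. Leukocyte genes were highest in P6d, at 4.56 CPM against 4.16 CPM in P6b. Smooth muscle and pericyte genes were highest in P6c, at 2187 CPM against 998 CPM in P6b. P30b had the highest P30 sums of endothelial, fibroblast, leukocyte and immediate early genes, at 620, 313, 31.6 and 2096 CPM. It had the lowest P30 sums of cardiomyocyte and of smooth muscle and pericyte genes, at 94252 and 972 CPM. The part of these cells and of scaling in the order of libraries was not tested. Without P30b 23 members were lower, without P6b 25, and without P30a 23.

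Shares within pairs of related genes were compared next. The share of 1 gene in the summed counts of a pair does not depend on library scaling, and 7 of 11 pairs differed between ages by an exact permutation test over 35 splits (two-sided, p = 0.0286, the smallest that 35 splits can give, or 0.0449 when adjusted over the 11 pairs). All 7 tie at this smallest p, and with fewer pairs at it none would pass after adjustment. The same count for pairs of other genes was not taken, while 54.1% of all genes tested were called between ages in either direction. Among the 7 is Hnrnpa1 with Hnrnpa2b1, which rests on few counts, so the other calls depend on that pair. With the log ratio in place of the share 0 pairs passed after adjustment, so the calls of all 7 pairs lie at the limit of what 7 libraries can give. Srsf4 rose from 19.5% ± 2.79 (SD, n = 4) to 34.0% ± 2.21 (SD, n = 3) of its pair with Srsf6, and Tra2a from 19.4% ± 3.07 to 27.3% ± 1.801 of its pair with Tra2b. Srsf3 fell from 66.9% ± 3.14 to 53.7% ± 1.85 of its pair with Srsf7, and Hnrnpf from 32.7% ± 2.40 to 18.7% ± 1.61 of its pair with Hnrnph1. In these 4 pairs the ages did not overlap. The directions follow by arithmetic from the log2 fold changes above and add no separate evidence.

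Of the tissue-specific pairs, Mbnl1 rose from 33.1% ± 1.24 to 38.8% ± 2.64 of its pair with Mbnl2, and Rbfox1 fell from 23.5% ± 4.15 to 16.1% ± 1.65 of its pair with Rbfox2. The share of Rbm20 in its sum with Rbm24 was 43.1%, 50.7%, 35.9% and 32.8% at P6, against 61.1%, 60.3% and 60.9% at P30. These shares did not overlap, but another split of the libraries gave as large a difference, and the exact permutation p was 0.0571 (adjusted 0.0786). Celf1 with Celf2, Ptbp1 with Ptbp2 and Srsf1 with Srsf9 did not pass either (exact permutation p of 0.143, 0.257 and 0.229). The remaining pair, Hnrnpa1 with Hnrnpa2b1, passed with shares of 0.0821% and 0.132% that rest on the few Hnrnpa1 counts.

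**Figure D3:**
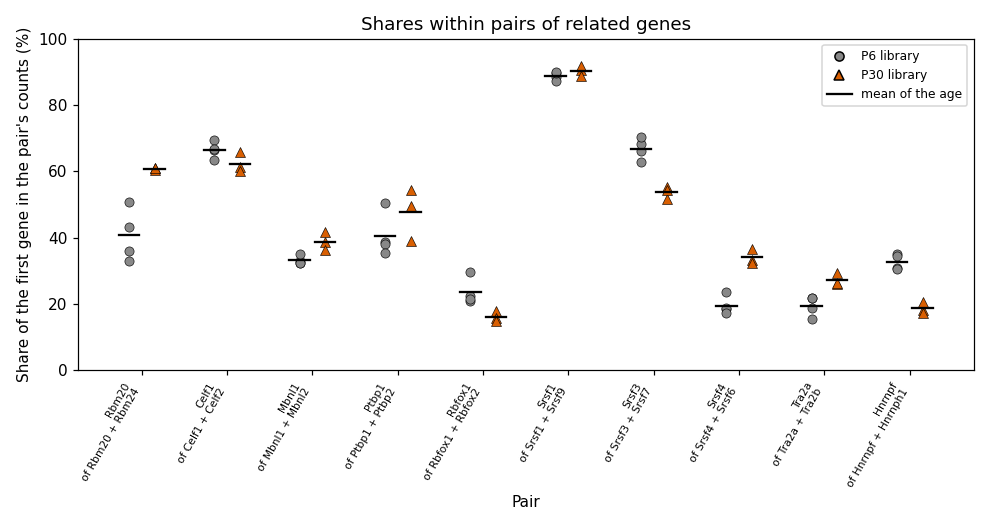
Points give the share (%) of the first gene in the counts of each pair in 1 library, with bars at the mean of each age; the pair of Hnrnpa1 and Hnrnpa2b1, under 0.2% in every library, is left out. The P30 shares of Rbm20 cluster between 60.3% and 61.1%, above all 4 P6 libraries.

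Levels can be compared between genes only per transcript length, here CPM per kb of the longest coding transcript. At P6 Hnrnpa2b1 was highest with 457 ± 22.0 CPM per kb, ahead of Rbm24 with 177 ± 19.7, Srsf5 with 151 ± 14.0 and Hnrnpk with 148 ± 6.88. Srsf5 lay within the spread of both Rbm24 and Hnrnpk. At P30 Hnrnpa2b1 still led with 316 ± 11.9 CPM per kb, followed by Hnrnpk with 99.6 ± 2.46. Rbm24, with 76.8 ± 4.86, was then within the spread of Rbm20, with 75.1 ± 5.89. Srsf3 moved from rank 6 to rank 13 of 36 and Srsf6 from 8 to 16, while Mbnl2 moved from 9 to 5 and Mbnl1 from 19 to 12. Hnrnpa1 and Hnrnpa3, with the limit given above, were lowest at both ages.

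**Figure D4:**
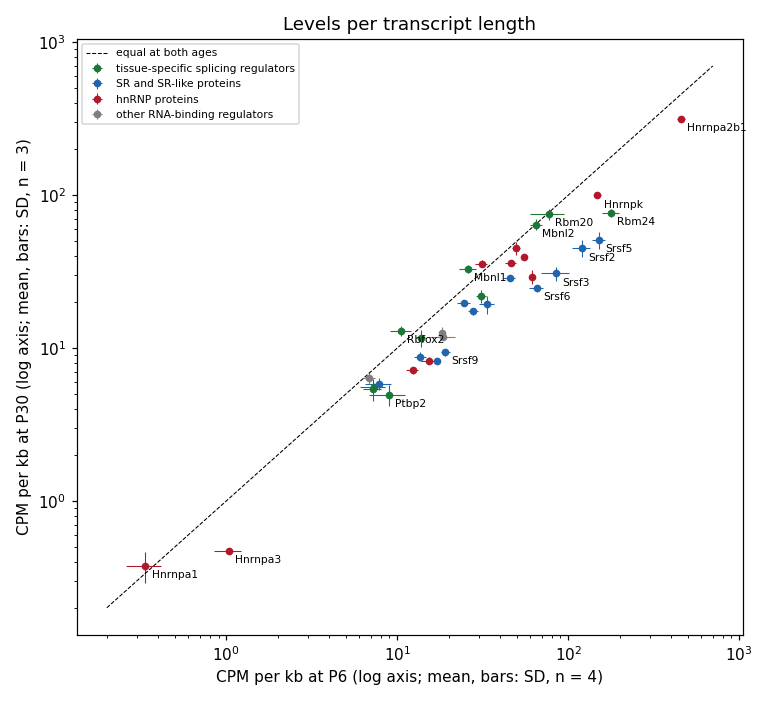
Each point is 1 gene, with its mean CPM per kb at P6 on the horizontal and at P30 on the vertical log axis; bars are SD and the dashed line marks equal levels. Rbm20 and Mbnl2 sit near the line, and the SR genes below it, with Srsf5 at 151 CPM per kb at P6 and 50.9 at P30.

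Other genes of the splicing machinery were taken from lists by function. Of 36 further SR-related and hnRNP genes tested, 25 were lower and 1 higher, with a median log2 fold change of -0.64. These are 69.4% and 2.78%, against 27.8% and 26.3% of all genes tested. Hnrnpab went from 304 ± 31.5 to 158 ± 11.7 CPM and the helicase Ddx5 from 311 to 377 CPM at P6 to 229 to 264 CPM at P30. The largest change of this list was in Rbm3, a cold-induced RNA-binding protein, from 100.1 ± 14.9 to 11.2 ± 2.81 CPM (log2 fold change -3.16 ± 0.19). Rbm5, a regulator of apoptosis genes, rose from 58.4 ± 11.4 to 104 ± 5.98 CPM.

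In the core spliceosome 16 of 32 genes were lower and 7 higher, 50% and 21.9%. Of all genes tested 27.8% were lower and 26.3% higher, so the share of rises was near that of all genes. Sf3b1, the branch point protein, fell from 281 ± 9.10 to 193 ± 4.86 CPM, and Snrpc, a small protein of the U1 particle, had a log2 fold change of -1.69 ± 0.27. Snrpb fell by 0.35 ± 0.09, a call lost with the length trend taken out (edgeR adjusted p = 0.39). Prpf19, a ubiquitin ligase of the spliceosome, rose from 334 ± 27.2 to 449 ± 21.1 CPM. The 7 that rose depended on the setting: 3 rose without P30a or with library totals, and 4 without P6d or with the length trend taken out.

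Of 10 genes for kinases or a phosphatase subunit that act on SR and related proteins, 1 was lower and 1 higher. Each is 10%, below the 27.8% and 26.3% of all genes tested. Srpk2, a kinase that phosphorylates SR domains, went from 79.1 ± 2.98 to 50.6 ± 6.08 CPM, and Clk1, a nuclear kinase of the same proteins, from 37.4 ± 9.10 to 54.2 ± 7.05 CPM. The call of Clk1 was lost with library totals (edgeR adjusted p = 0.12) and when P6c, P6d, P30a or P30c was left out. With library totals 4 genes of this list were lower and none higher.

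Of 24 further tissue-regulated splicing factors, 13 were tested, with 5 lower and 3 higher. These are 38.5% and 23.1%, against 27.8% and 26.3% of all genes tested. The list median log2 fold change of 0.13 is that of Qk and depends on P30a, where Qk alone of the P30 libraries was high, at 813 CPM. Rbpms and Rbpms2, RNA-binding proteins of muscle cells, fell by 0.61 ± 0.09 and 0.71 ± 0.14 on the log2 scale. Srrm4, known as the neural regulator of microexons, had 0.905, 2.60, 2.41 and 2.79 CPM at P6 and 23.6, 28.8 and 22.1 CPM at P30, an 11.01-fold rise (edgeR adjusted p = 9.7e-06). With Nova1 and Nova2, both under 2 CPM at either age, it made up the 3 that rose; 1 of the list rose with library totals, with the length trend taken out, and without P6c, P6d or P30b.

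Of 20 genes whose splicing in muscle or heart is regulated by such factors, 8 were higher and 4 lower as whole genes. These are 40% and 20%, against 26.3% and 27.8% of all genes tested. Ttn, the giant titin gene, went from 3474 ± 474 to 6735 ± 1884 CPM and Ldb3, a Z-disc gene, from 1318 ± 133 to 1760 ± 93.4 CPM. Ryr2, the calcium release channel, had a log2 fold change of 1.26 ± 0.10 and Lmo7 one of -0.46 ± 0.11. With the length trend taken out Ttn had a log2 fold change of 0.16 and did not pass (edgeR adjusted p = 0.29). These values say nothing of isoforms.

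**Figure D5:**
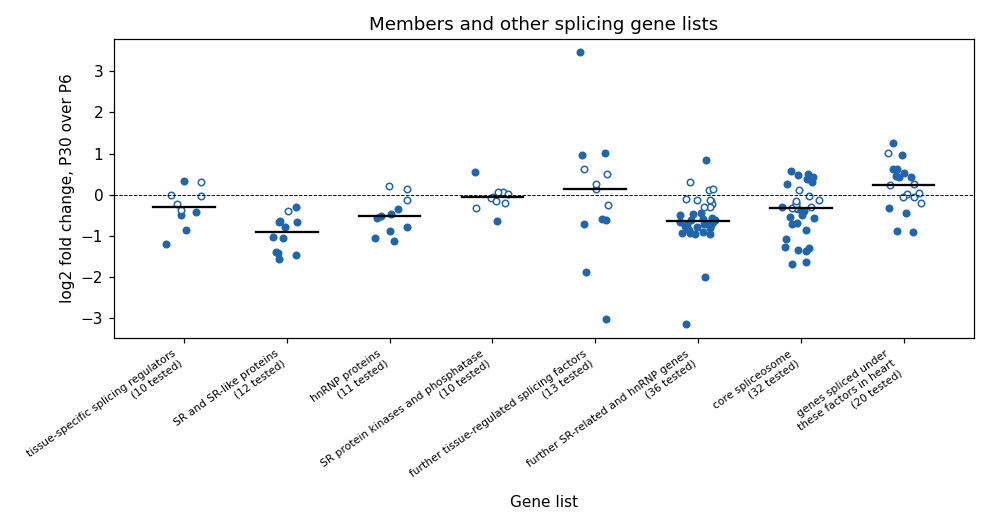
Points give the log2 fold change of each tested gene in the 3 largest classes and the other splicing lists, filled where the test was passed, with a bar at each median; the dashed line is the median of all genes tested. The medians of the SR class (-0.90), the further SR-related and hnRNP list (-0.64), the hnRNP class (-0.53), the core spliceosome (-0.32), the tissue-specific class (-0.31) and the SR kinases (-0.07) lie below the line, and the other lists above it. The median of the further tissue-regulated list, 0.13, is the value of Qk, which had 813 CPM in P30a and 187 and 184 CPM in P30b and P30c. Without P30a Qk had a log2 fold change of -0.95, so this median depends on that library.

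The split of calls depended on scaling. With library totals 30 members were lower and 0 higher, and over all genes 4658 were lower and 2408 higher, as against 3490 and 3307 with TMM factors; over all genes the median log2 fold change became -0.20. In the authors' deposited table, a DESeq2 comparison of the same libraries, 35 of the 36 members had the same sign as here, the exception being Mbnl2, and 25 were lower and 2 higher at an adjusted p under 0.05. The log2 fold changes of Rbm20 (-0.0213) and Srsf5 (-1.55) there equalled those of the DESeq2 alternative here, so that table is no separate check. In the DESeq2 alternative 3453 genes were lower and 3681 higher over 15727 tested.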

How the data were processed

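RNA sequencing of sorted cardiomyocytes was analysed from the authors' deposited count table, whole reads per gene; per the submitters' processing notes the tools were STAR 2.5.3a, Subread 1.5.2 with featureCounts, and CASAVA 1.8, and the build was mm10. Not given in the sources used here are the annotation, the strand setting and the handling of multi-mapping reads. The labels' treatment text gives collection at P14, whereas titles, ages and design text give P6 and P30, which were used. Count columns carry letters that match no title number and took their group from the age they name. The authors' deposited DESeq2 table holds baseMean (a signal: size-factor-scaled counts), log2 fold changes with standard errors on the log2 scale, the Wald score, and p-values with adjusted p-values, per the file headers.

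The test across genes was the quasi-likelihood test of edgeR 4.0.16 (R 4.3.3) with age as the only term (TMM factors, low counts removed by filterByExpr, Benjamini-Hochberg threshold 0.05 over 12561 genes) after a trial on simulated data. CPM used TMM-scaled totals of tested genes. DESeq2 1.42.0, other scalings, no filter, a loess length trend and omission of each library were the alternatives. Transcript lengths, coordinates and 50-base words came from GENCODE M21 (GRCm38), matched by symbol for 22872 of 23337 genes, and promoter windows from RefSeq. No library duplicated another: within an age the chi-square per gene was at least 9.18, where sampling noise gives about 1.

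The members and lists were chosen with earlier results of these data known. Values in every library are given for the tissue-specific regulators and, in each other class, for the 2 largest falls and rises past the threshold and the most counted member; of each other list the 2 most counted genes called in the commoner direction, the largest change at a mean of at least 1 CPM, and the most counted in the other direction are named. Other genes were named after their values were seen.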

Additional observations from a re-analysis of the deposited data

Results flagged for a closer look

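Within the 4 P6 libraries each member was examined for a library far from the other 3, by the gap to its nearest neighbour as a share of the whole range (Dixon's 95% critical value). This holds by chance in about 1 of 20 groups, and it held for 3 of the 36 genes. Celf2 had 112 CPM in P6b, against 124 to 126 CPM in the other P6 libraries, and it passed as lower at P30 without P6b and also without P30c, with library totals and with the length trend taken out. Srsf1 had 152 CPM in P6b, against 185 to 190 CPM in the others, and was lower at P30 with or without that library. Hnrnpa1 had 0.422 CPM in P6d, from 5 raw counts, against 0.700 to 0.732 CPM.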

How the results depend on the processing

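Of the 26 members called, 23 kept their direction and their call in each of the 12 alternatives (other scalings, DESeq2, no filter, the length trend taken out, and each of 7 libraries left out); Mbnl1, Ptbp1 and Srsf4 did not. Of the 10 not called, 7 passed in at least 1 alternative. The number of members lower at P30 was 24 to 30 with other settings and 23 to 25 with 1 library left out. The number higher was 2 with median-of-ratios size factors and with DESeq2, where Rbfox2 joined Mbnl1, 0 with library totals, 1 with the length trend taken out (Hnrnph1 in place of Mbnl1), and 0 to 2 with 1 library left out. Tissue-specific regulators gave 3 to 6 lower, SR genes 10 to 12 and hnRNP genes 8 or 9. The log2 fold change of Mbnl2 turned to 0.0041 with median-of-ratios size factors and 0.0026 with DESeq2, and ran from -0.072 to 0.054 with 1 library left out; that of Rbm20 ran from -0.14 to 0.12, and that of Hnrnpa1 from -0.060 to 0.24, and under library totals they were -0.193, -0.226 and -0.0585. Of 11 pairs, 7 passed with counts divided by transcript length and 0 with the log ratio; with 1 library left out no p under 0.0667 is possible, so no count was taken. The cause of these shifts was not tested. No paired analysis was possible because the columns carry letters that the labels tie to no replicate number. Depth limits Hnrnpa1, with at most 38 counts in a library.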

Other observations

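Qk and Khdrbs3, 2 further splicing regulators named after their values were seen, stood apart in P30a. Qk, the quaking protein that shapes splicing in heart and in myelinating glia, had 347, 361, 321 and 410 CPM in P6a to P6d, 813 CPM in P30a, and 187 and 184 CPM in P30b and P30c. Khdrbs3, a relative of Khdrbs1, had 12.6 to 19.0 CPM at P6, 57.5 CPM in P30a, and 6.59 and 11.5 CPM in P30b and P30c. With all libraries neither passed the test (edgeR adjusted p of 0.82 and 0.39). Without P30a both turned to lower at P30 and passed, with log2 fold changes of -0.95 (edgeR adjusted p = 0.00051) and -0.86 (0.028). P30a also had a count for 18223 genes, against 14476 to 16711 in the other libraries. Of the 36 members, P30a was the highest P30 library for 14 and the lowest for 6.

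Cirbp, the other cold-induced RNA-binding protein beside Rbm3 and also named after its values were seen, had 131, 122, 153 and 163 CPM at P6 and 29.6, 37.6 and 39.4 CPM at P30. Its log2 fold change was -2.001 ± 0.14 (edgeR adjusted p = 6.0e-06), lower in every P30 library than in any P6 library. Mbnl3, the third muscleblind gene, was low at both ages, 1.36 to 3.35 CPM at P6 and 0.351 to 0.725 CPM at P30 (edgeR adjusted p = 0.0060). Elavl2, a neuronal relative of Elavl1, had 3.98 and 4.10 CPM in P6a and P6b, 1.44 and 1.52 CPM in P6c and P6d, and 0.129 to 0.502 CPM at P30 (edgeR adjusted p = 0.0023).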
